A study of Cavia porcellus with 12 samples.

Results

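Toll-like receptors (TLRs) and the NLRP3 inflammasome were examined in the liver of guinea pigs with nonalcoholic steatohepatitis (NASH). The 10 genes considered were *TLR2*, *TLR3*, *TLR4*, *TLR9*, *MYD88*, *NLRP3*, *PYCARD*, *CASP1*, *IL1B* and *IL18*, and a gene was kept if it was a row of the deposited expression table. All 10 were found among the 11896 human orthologue symbols of that table. Liver RNA came from 6 guinea pigs with NASH and 6 controls, each animal being a sample of its own. All were female Dunkin Hartley guinea pigs from 1 breeder, 10 weeks old on arrival and acclimatised for 1 week. For 25 weeks, the NASH animals were fed a high-fat diet that also contained sucrose and cholesterol, and the controls were fed chow. The NASH animals were picked among high-fat-fed animals for grade 3 bridging fibrosis, whereas the controls were drawn at random among animals free of NASH and fibrosis. Diet, disease and this selection cannot be told apart. The tissue was the left lateral lobe of non-perfused livers, so blood cells were part of it.

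TLRs are receptors of innate immunity that bind molecules of microbes or of damaged cells, some at the cell surface and others in endosomes. Most of them signal through the adaptor MYD88, which leads to transcription of inflammatory genes, the precursor of interleukin-1β and *NLRP3* among them. NLRP3 is a cytosolic sensor that assembles with the adaptor PYCARD and the protease CASP1 into the inflammasome, and CASP1 then cleaves the precursors of interleukin-1β and interleukin-18. In the liver, Kupffer cells (the resident macrophages), recruited monocytes and neutrophils carry much of this machinery. Cleavage and secretion are not seen in mRNA, so the values describe transcript levels and not inflammasome activity.

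Of the 10 genes, 5 were higher in NASH (*TLR4*, *TLR9*, *NLRP3*, *PYCARD* and *IL18*) and 0 were lower, at a Benjamini-Hochberg adjusted p under 0.05 in edgeR. Over all genes tested, 27.9% were higher and 26.0% were lower, 53.9% in either direction, so that a call by itself was common in these livers. At an unadjusted p under 0.05, edgeR gave 5 higher and 0 lower, and both DESeq2 and limma-voom also gave 0 lower. In 4 of the 10 genes every NASH animal lay above every control, compared with 18.4% of all genes. The median log2 fold change (NASH over control) of the 10 genes was 1.01, beside 0 for all genes tested. The other 5 genes, *TLR2*, *TLR3*, *MYD88*, *CASP1* and *IL1B*, did not pass the test. Levels are given as CPM, the counts of a gene scaled to the size of its library, which is not divided by gene length, so levels of different genes were not compared.

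**Figure D1:**
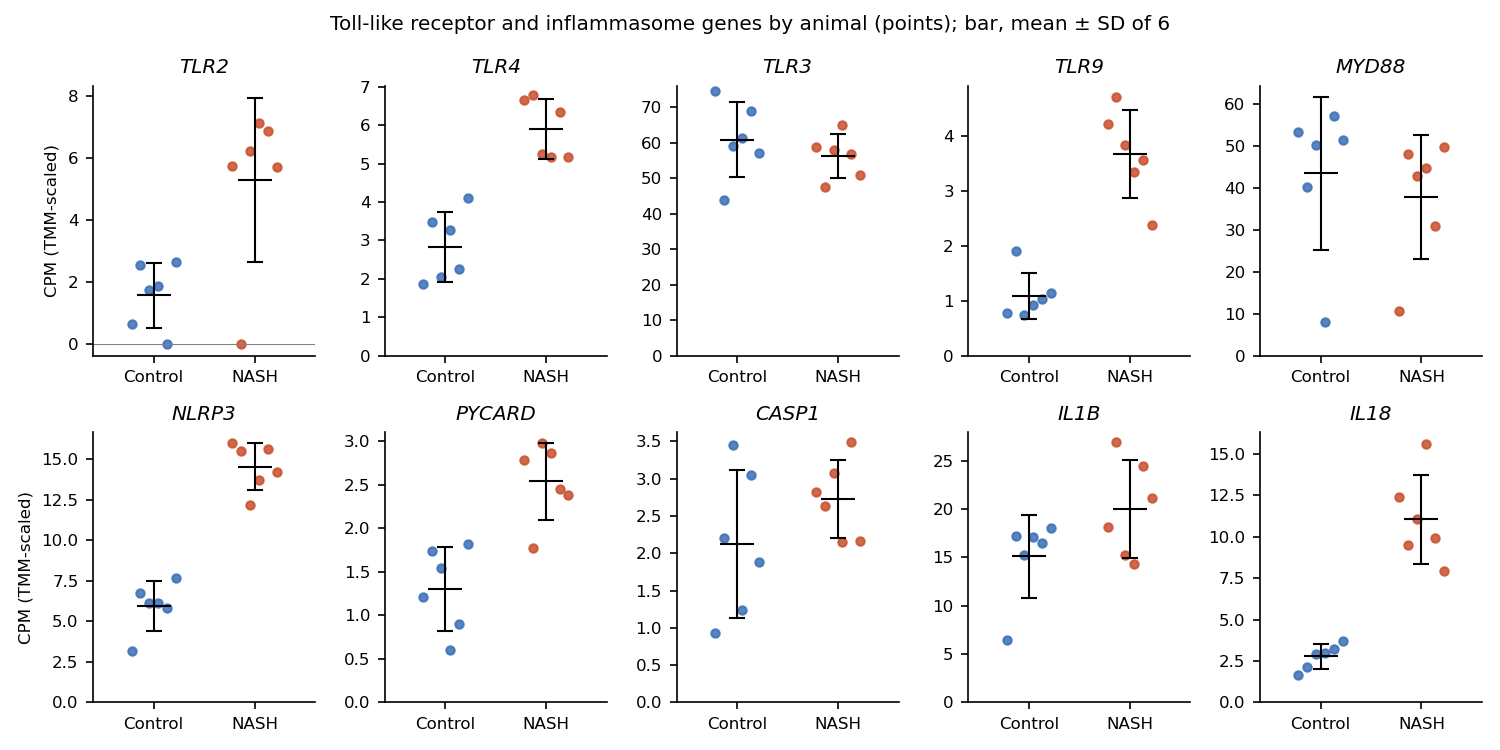
CPM of each of the 10 genes in the 6 controls (blue) and the 6 NASH animals (red). Points are animals and bars are the mean ± SD. The groups are apart in TLR4, TLR9, NLRP3 and IL18, and single animals lie far below their group in TLR2 and MYD88.

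The libraries held between 16980274 and 28636467 counts in controls and between 23704607 and 33091460 in NASH. A count of 0 allows up to 0.214 CPM in controls (Control 5) and up to 0.105 CPM in NASH (NASH 65), by counting error alone. Hepatocyte markers fell in 7 of the 8 found, with summed levels of 106000 to 135000 CPM in controls and 41800 to 67600 CPM in NASH. With scaling by library size alone, 4 of these markers were lower and 1 was higher. Control 5 stood apart among the controls. It was the lowest control in 5 of the 10 genes, and its summed macrophage markers (397 CPM) were the lowest of any animal. Without Control 5, the same test again gave 5 of the 10 genes higher. Since the tissue was bulk liver, more cells of a type and more RNA per cell cannot be told apart.

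Among the receptors at the cell surface, *TLR4* was higher in NASH and *TLR2* did not pass the test. *TLR4* encodes the receptor of bacterial lipopolysaccharide. It ranged from 1.86 to 4.11 CPM (median 2.76) in controls and from 5.17 to 6.77 CPM (median 5.78) in NASH. The groups did not overlap. The mean was 2.84 ± 0.908 CPM in controls and 5.89 ± 0.775 CPM in NASH (SD, n = 6 each). This was a 2.08-fold difference, with a log2 fold change of 1.06 ± 0.19 (SE) and an adjusted p of 0.000493 (edgeR). Leaving out any 1 animal kept this value for *TLR4* between 0.97 and 1.18.

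*TLR2* encodes the receptor of bacterial lipoproteins, which pairs with TLR1 or TLR6. Controls ranged from 0 to 2.63 CPM (median 1.8) and NASH animals from 0 to 7.14 CPM (median 5.99). One animal of each group, Control 45 and NASH 9, had 0 counts at this locus (MSTRG.4763). The other controls had 9 to 50 counts, and the other NASH animals had 163 to 270 counts. With all animals, the log2 fold change of *TLR2* was 1.76 ± 0.82 (SE), with a 95% interval from -0.03 to 3.54 and an adjusted p of 0.0904 (edgeR). Leaving out 1 animal gave between 1.47 and 2.02, with a call only without NASH 9 (2.02, adjusted p = 0.00989). Leaving out both animals at 0, a choice made after seeing the values, gave 1.74 with an adjusted p of 0.000498. With scaling by library size alone, the value of *TLR2* was 2.23, with a call (adjusted p = 0.0292).

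The zeros of *TLR2* had a counterpart in the locus numbered next to it, MSTRG.4764, which carries no symbol. There, Control 45 had 45 counts and NASH 9 had 89 counts, whereas the other 10 animals had between 4 and 29. *MYD88* also had a low animal in each group, Control 32 and NASH 2. The locus numbered before it, MSTRG.22977, had 5 and 7 counts in these animals and 3 to 12 in the others. The locus numbered after it, the row of *ACAA1*, had 31157 and 19059 counts in them, within the range of the others (16289 to 33925). At that level, counts gained from *MYD88* could not have been seen. The part of the assembly of loci in the low values of *TLR2*, *MYD88* and *TLR8* was not tested. Over all genes, animals under 0.1 times their group's median were rare. The zeros of *TLR2* and the low *TLR8* of NASH 65 met this rule. The low values of *MYD88* and of *TLR8* in Control 5 did not, and how common gaps of their size were was not counted. Of 10828 count rows with a group median of at least 30 counts, 88 had an animal under 0.1 times its group's median, and in 26 of these an animal was at 0. Each animal was the low one in 6 to 22 rows, among them Control 45 in 8 rows and NASH 9 in 6 rows. The most rows of their groups belonged to Control 5 (22 rows) and NASH 65 (14 rows), the animals lowest in *TLR8*.

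**Figure D2:**
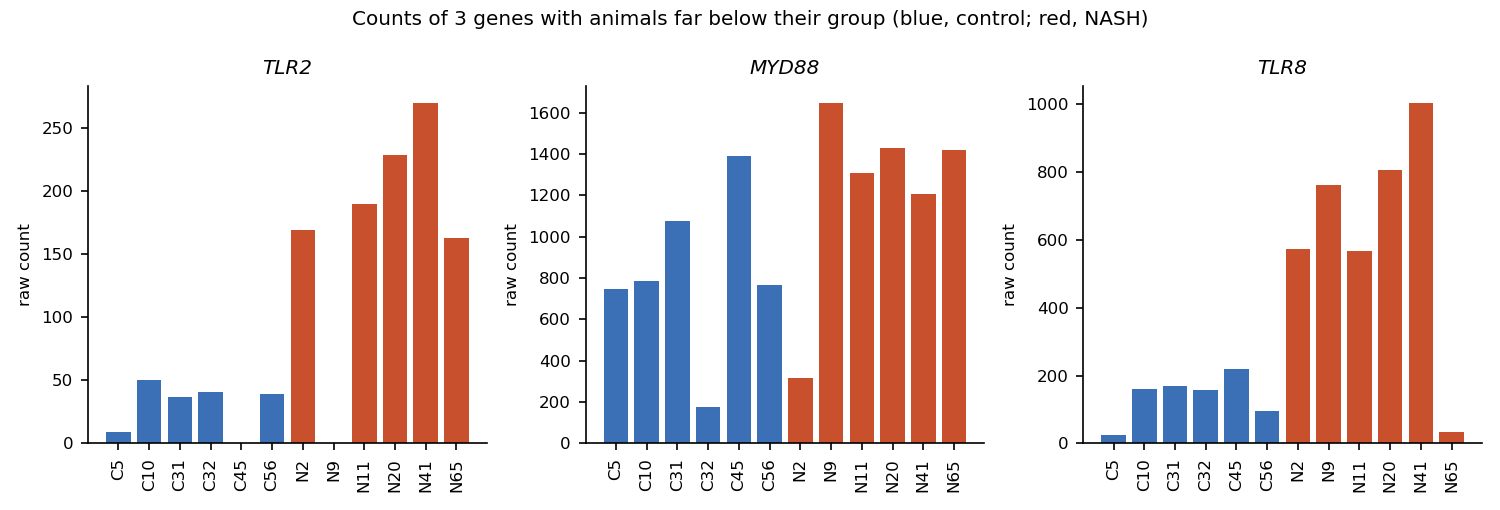
Raw counts per animal of TLR2, MYD88 and TLR8, in controls (C, blue) and NASH animals (N, red). TLR2 is at 0 in C45 and N9, MYD88 is low in C32 (178 counts) and N2 (317 counts), and TLR8 is low in C5 and N65 (34 counts).

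The endosomal receptor *TLR9*, which recognises unmethylated CpG DNA, was higher in NASH. It ranged from 0.745 to 1.9 CPM (median 0.973) in controls and from 2.38 to 4.7 CPM (median 3.69) in NASH, without overlap. The mean went from 1.09 ± 0.424 to 3.67 ± 0.797 CPM (SD, n = 6 each), a 3.36-fold difference. The log2 fold change was 1.75 ± 0.24 (SE), with an adjusted p of 6.02e-05 (edgeR). These levels rested on 11 to 37 counts per control and 68 to 161 counts per NASH animal. The count row of *TLR9* also carried the symbol *AC097637.1*, so the counts could not be assigned to *TLR9* alone.

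*TLR3*, the endosomal receptor of double-stranded RNA, which signals through TICAM1 instead of MYD88, did not pass the test. Controls ranged from 43.8 to 74.5 CPM (median 60.2) and NASH animals from 47.6 to 65 CPM (median 57.5), with the NASH range inside that of the controls. In log2 units the difference was -0.11 ± 0.12 (SE), with a 95% interval from -0.37 to 0.14 and an adjusted p of 0.439 (edgeR). With scaling by library size alone it turned to 0.37, with a call (adjusted p = 0.0168). The row also carried *FAM149A*, the neighbour of *TLR3* in the RefSeq annotation of another guinea pig assembly (mCavPor4.1). How much of the counts came from either gene is unknown.

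The other TLRs gave a mixed picture too. Of 6 listed, 4 were found (*TLR5* and *TLR10* were not in the table), and 3 of these were higher in NASH. *TLR7*, an endosomal receptor of single-stranded RNA, rose from 3.09 ± 1.15 to 13.5 ± 2.46 CPM (SD, n = 6 each). Its log2 fold change was 2.1 ± 0.23 (SE), with an adjusted p of 9.53e-06 (edgeR), and the groups did not overlap. *TLR6*, a partner of TLR2, rose from 4.63 ± 1.22 to 8.4 ± 1.33 CPM, with a log2 fold change of 0.87 and an adjusted p of 0.000912. *TLR1*, the other partner of TLR2, had a log2 fold change of 0.28 with an adjusted p of 0.319. *TLR1* and *TLR6* overlap in the RefSeq annotation, although each had a count row of its own here (MSTRG.12505 and MSTRG.12508).

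*TLR8*, another receptor of single-stranded RNA, passed the test narrowly. Controls ranged from 1.86 to 9.01 CPM (median 7.61) and NASH animals from 1.19 to 25.6 CPM (median 20.9). The lowest level of all belonged to NASH 65, with 34 counts, whereas the other NASH animals had 567 to 1004. The log2 fold change of *TLR8* was 1.45 ± 0.53 (SE), with an adjusted p of 0.0338 (edgeR). The call was lost with limma-voom (adjusted p = 0.285) and on all count rows with at least 1 count (adjusted p = 0.0554), and leaving out 1 animal took the adjusted p past the threshold for Control 5 (0.0586), Control 32 (0.0537), Control 56 (0.0579), NASH 2 (0.0529), NASH 9 (0.0588), NASH 11 (0.0505), NASH 20 (0.0644) and NASH 41 (0.0648). With these animals left out the log2 fold change of *TLR8* lay between 1.26 and 1.47, and it was 1.09 with limma-voom and 1.53 on all count rows. Without NASH 65 it was 1.69 and the call was kept (adjusted p = 0.000374).

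*MYD88*, the adaptor shared by most TLRs and by the receptors of interleukin-1 and interleukin-18, did not pass the test. Controls ranged from 8.17 to 57.1 CPM (median 50.8) and NASH animals from 10.8 to 49.6 CPM (median 43.7). The groups overlapped, and again 1 animal of each group was far below the rest. Control 32 had 178 counts, compared with 746 to 1388 in the other controls, and NASH 2 had 317 counts, compared with 1208 to 1646 in the other NASH animals. For *MYD88* the log2 fold change was -0.20 ± 0.42 (SE), with a 95% interval from -1.11 to 0.71 and an adjusted p of 0.712 (edgeR). Without these 2 animals, a choice made after seeing the values, it was -0.22 with an adjusted p of 0.198, and with scaling by library size alone it was 0.26. Leaving out 1 animal gave between -0.42 (without Control 32) and -0.01 (without NASH 2), with no call.

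The other genes of the pathway were read from lists of accessory proteins and signalling proteins of the TLRs. Of 12 accessory proteins, all found, 3 were higher and 2 were lower, beside 27.9% and 26.0% of all genes, and the median on the log2 scale was 0.02. With scaling by library size alone, 8 were higher and 1 was lower. *UNC93B1*, which carries TLR3, TLR7, TLR8 and TLR9 to endosomes, rose from 19.8 ± 5.1 to 45.1 ± 5.29 CPM (SD), with a log2 fold change of 1.18 and an adjusted p of 0.000113 (edgeR). The scavenger receptor *MSR1* rose as well, with a log2 fold change of 1.15 (adjusted p = 0.0103). *CNPY3*, a chaperone of TLRs, fell by 0.41 on the log2 scale (adjusted p = 0.00105), although it stood at 0.07 with scaling by library size alone. The row of the scavenger receptor *SCARF1*, which also carried *RILP*, fell by 0.95 (adjusted p = 5.75e-05), and it stood at -0.49 with scaling by library size alone (adjusted p = 0.00671).

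Of 24 signalling proteins, 21 were found, of which 11 were higher and 1 was lower, around a median of 0.45 on the log2 scale. The kinase *IKBKE*, which phosphorylates interferon regulatory factors, rose from 2.97 ± 1.14 to 13.6 ± 1.03 CPM, with a log2 fold change of 2.17 and an adjusted p of 1.41e-05 (edgeR). Among its controls, Control 5 was low at 0.715 CPM, and without that animal the log2 fold change of *IKBKE* was 1.99. *BTK*, a kinase of B cells and myeloid cells, rose with a log2 fold change of 1.48 (adjusted p = 7.6e-05). The gene that fell was *SIGIRR*, an inhibitory receptor of TLR and interleukin-1 signalling, with a log2 fold change of -0.25 (adjusted p = 0.0078), which became 0.22, a call in the other direction (adjusted p = 0.0082), with scaling by library size alone. On all count rows with at least 1 count, it stood at -0.17 and the call of *SIGIRR* was lost (adjusted p = 0.0934).

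*NLRP3*, the sensor of the inflammasome, was higher in every NASH animal than in any control. Controls ranged from 3.14 to 7.67 CPM (median 6.15) and NASH animals from 12.2 to 16 CPM (median 14.8). The mean went from 5.95 ± 1.52 to 14.5 ± 1.44 CPM (SD, n = 6 each), a 2.44-fold difference. This gave a log2 fold change of 1.29 ± 0.16 (SE), with a 95% interval from 0.93 to 1.64 and an adjusted p of 2.71e-05 (edgeR). Control 5 was the lowest control, and without it the log2 fold change of *NLRP3* was 1.16.

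The genes with the pattern most like that of *NLRP3* across the 12 animals were *SASH3*, *PPP1R9B* and *FMNL3*. Likeness was the root mean square difference of log2 CPM profiles, each centred on its own mean, and it was 0.11 for each of the 3. For *IL1B*, the most similar genes were *ARHGAP25* (0.198), *SLAMF8* (0.204) and *LPP* (0.226). No gene came close to *TLR2*, whose nearest were *C1QA* (1.72), *GPAT3* (1.72) and *TMOD1* (1.73). All these profiles share the same 12 libraries.

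*PYCARD*, the adaptor that joins NLRP3 to CASP1, was higher in NASH. Controls ranged from 0.597 to 1.82 CPM (median 1.38) and NASH animals from 1.78 to 2.98 CPM (median 2.62). The groups met at their edges, since NASH 9 lay just under Control 56. The mean went from 1.3 ± 0.485 to 2.54 ± 0.441 CPM (SD, n = 6 each), a 1.96-fold difference. For *PYCARD* the log2 fold change was 0.97 ± 0.25 (SE), with an adjusted p of 0.00579 (edgeR). The counts were low, 13 to 34 per control and 61 to 96 per NASH animal.

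*CASP1*, the protease of the inflammasome, did not pass the test. It ranged from 0.929 to 3.45 CPM (median 2.04) in controls and from 2.15 to 3.49 CPM (median 2.72) in NASH, and the groups overlapped over much of their ranges. Its log2 fold change was 0.34 ± 0.28 (SE), with a 95% interval from -0.27 to 0.96 and an adjusted p of 0.325 (edgeR). Its count row also carried *CARD16* and *CARD17*, which resemble the first part of *CASP1*. With 1 animal left out, the value of *CASP1* lay between 0.20 and 0.53, with no call. With scaling by library size alone it was 0.81, with a call (adjusted p = 0.0248).

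Other sensors and regulators of inflammasomes moved in both directions. Of 18 listed, 9 were found, of which 4 were higher and 2 were lower, and the median change was 0.37 (log2). *P2RX7*, the ATP-gated channel upstream of NLRP3, rose from 1.64 ± 0.324 to 3.96 ± 0.778 CPM, with a log2 fold change of 1.26 (adjusted p = 6.37e-05, edgeR). The cytosolic peptidoglycan sensor *NOD2* rose with a log2 fold change of 1.14 (adjusted p = 0.00159). *PANX1*, a channel that releases ATP, fell by 0.74 on the log2 scale (adjusted p = 1.92e-05), and *NEK7*, a kinase that binds NLRP3 during assembly, fell by 0.62 (adjusted p = 0.000129). In both the NASH animals lay below all controls. With scaling by library size alone, *PANX1* stood at -0.26 (adjusted p = 0.0192) and *NEK7* at -0.14, where its call was lost (adjusted p = 0.136).

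Genes of pyroptosis, the lytic cell death that follows inflammasome activation, and of the other inflammatory caspases were higher throughout. Of 10 listed, 7 symbols were found and all 7 were higher in NASH, and their median change was 1.25 (log2). A pair of them, *CASP4* and *CASP5*, shared 1 count row, with a log2 fold change of 1.32 for *CASP5* (adjusted p = 0.00033, edgeR). *SERPINB1*, an inhibitor of neutrophil proteases, rose from 12.7 ± 2.11 to 35.8 ± 4.52 CPM, with a log2 fold change of 1.49 (adjusted p = 7.51e-07). Over all the pathway lists together, 61 of 86 genes were found, of which 29 (47.5%) were higher and 6 were lower, and the median change was again 0.37. Over all genes tested the shares were 27.9% higher and 26.0% lower. Without Control 5, 25 were higher and 6 were lower.

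**Figure D3:**
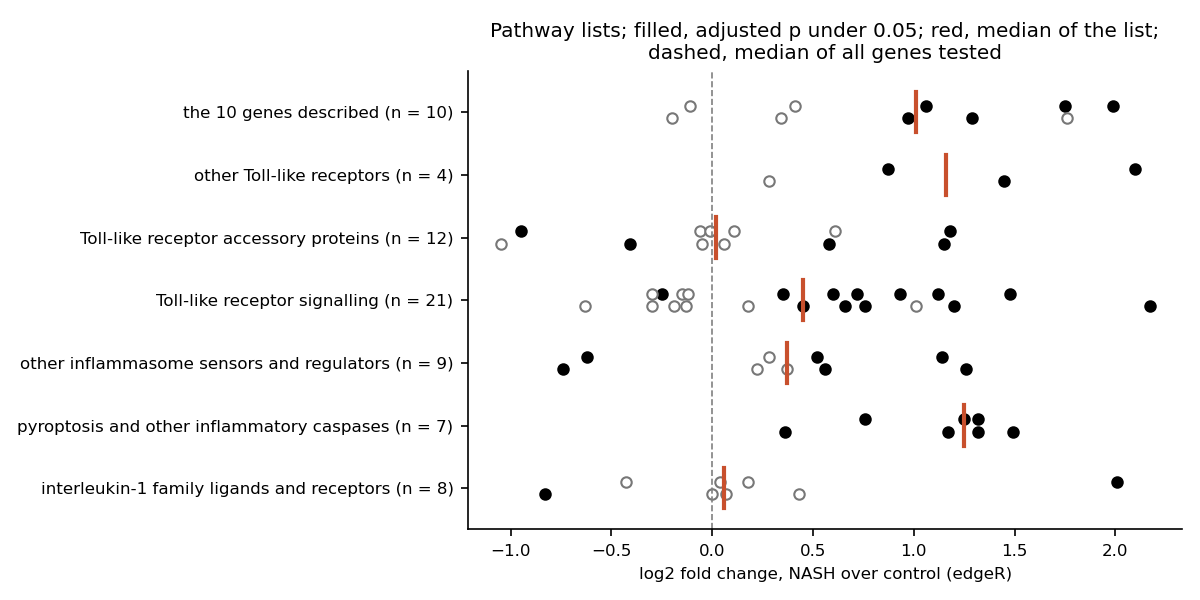
Log2 fold change (NASH over control, edgeR) of every found gene in each list, 1 point per gene, with filled points for genes past an adjusted p of 0.05. All 7 genes of the pyroptosis list lie above 0 and are filled, whereas the accessory proteins lie on both sides of 0.

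The 2 cytokines that CASP1 cleaves differed in their values. *IL18* ranged from 1.64 to 3.7 CPM (median 2.96) in controls and from 7.91 to 15.6 CPM (median 10.5) in NASH. The lowest NASH animal was well above the highest control. The mean went from 2.78 ± 0.751 to 11.1 ± 2.69 CPM (SD, n = 6 each), a 3.96-fold difference. The log2 fold change was 1.99 ± 0.20 (SE), with a 95% interval from 1.55 to 2.43 and an adjusted p of 5.1e-06 (edgeR). Leaving out any 1 animal kept it between 1.86 and 2.08.

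*IL1B*, which encodes interleukin-1β, ranged from 6.5 to 18 CPM (median 16.8) in controls and from 14.3 to 26.9 CPM (median 19.6) in NASH. The groups overlapped, and 4 of the NASH animals (2, 9, 41 and 65) lay above all controls, NASH 2 by a narrow margin. Control 5 was far below the other controls, which lay between 15.3 and 18 CPM. For *IL1B* the log2 fold change was 0.41 ± 0.23 (SE), with a 95% interval from -0.09 to 0.90 and an adjusted p of 0.154 (edgeR). Without Control 5 it was 0.25 with an adjusted p of 0.199, and with scaling by library size alone it was 0.87, with a call (adjusted p = 0.00505). The difference between the changes of *IL18* and *IL1B* was not tested.

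**Figure D4:**
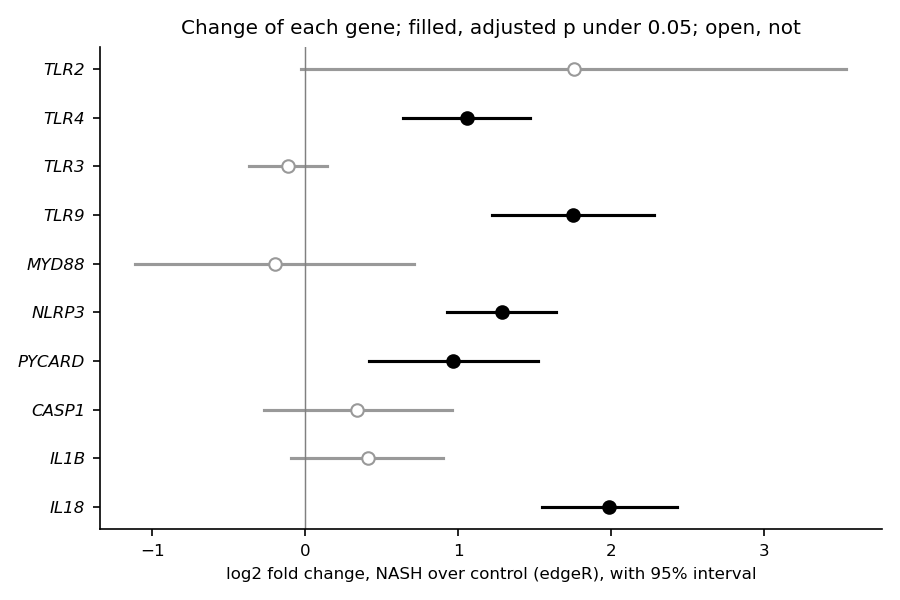
Log2 fold change (NASH over control) of the 10 genes from edgeR, with 95% intervals. Filled points passed an adjusted p of 0.05. The intervals of TLR2 and MYD88, each with single low animals, are the widest of the 10.

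The receptors and inhibitors of these cytokines were mostly not called. Of 16 genes of the interleukin-1 family, 8 were found, of which 1 was higher and 1 was lower, and the median change was 0.06 (log2). Over all genes, 53.9% were called. With scaling by library size alone, 3 genes of this list were higher and 0 were lower. The receptor antagonist *IL1RN* was not in the table. *IL1RL2*, the receptor of interleukin-36, rose from 1.63 ± 0.404 to 6.64 ± 0.575 CPM, with a log2 fold change of 2.01 (adjusted p = 7.14e-07, edgeR). *IL1R1*, the signalling receptor of interleukin-1, fell by 0.83 on the log2 scale (adjusted p = 0.00105), from 164 ± 40.6 to 92.4 ± 14.2 CPM, although with scaling by library size alone it stood at -0.35 and the call was lost (adjusted p = 0.0595). The decoy receptor *IL1R2* had a log2 fold change of 0.07 with an adjusted p of 0.8.

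Ratios within an animal depend little on how libraries are scaled where both genes have counts, and 3 were computed. The log2 ratio of *IL1R2* to *IL1R1* was -3.42 ± 0.24 in controls and -2.55 ± 0.33 in NASH (SD, n = 6 each). It was higher by 0.86 in NASH without overlap, with an exact permutation p of 0.00216, the smallest that 6 against 6 animals can give, and an adjusted p of 0.00649. The log2 ratio of *IL18BP*, which binds and neutralises interleukin-18, to *IL18* was 2.98 ± 0.93 in controls and 1.5 ± 0.44 in NASH. The difference was -1.49 (exact permutation p = 0.0108, adjusted p = 0.0162), although Control 56, at 1.29, lay among the NASH animals. The row of *IL18BP* also carried *RNF121*. The log2 ratio of *TLR2* to *TLR4* differed by 0.45 (exact permutation p = 0.604), and it rested on the 2 animals with 0 counts of *TLR2*, whose ratios are set by the prior count. It was -0.25 without Control 45 (adjusted p = 1), 1.55 without NASH 9 (adjusted p = 0.0173, exact permutation test) and 0.85 without both (adjusted p = 0.0119, exact permutation test).

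**Figure D5:**
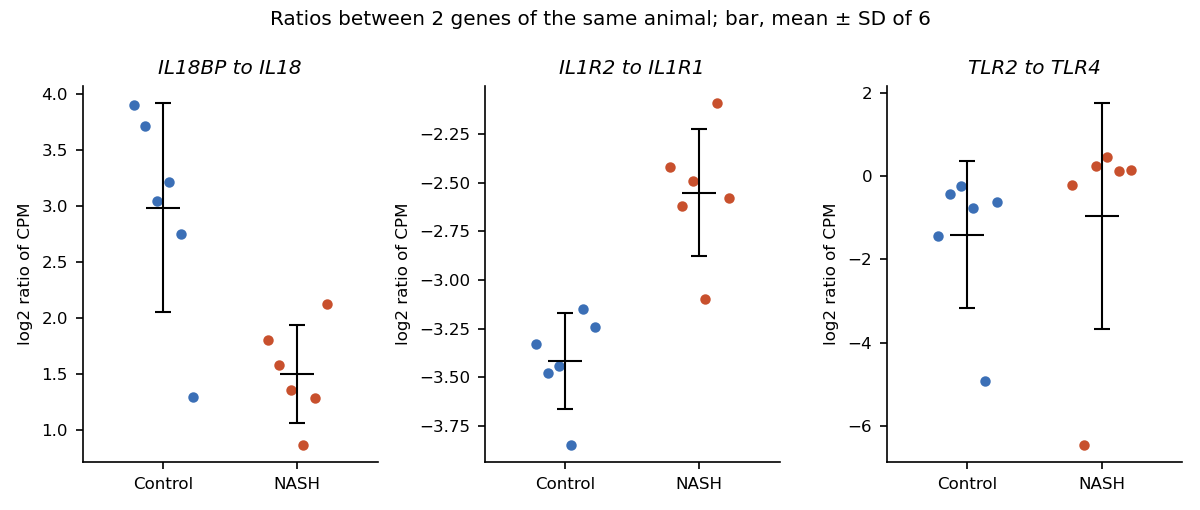
Log2 ratio of CPM (prior count of 2) between genes of the same animal in controls (blue) and NASH animals (red), with mean ± SD. The ratio of IL1R2 to IL1R1 is higher in every NASH animal, and the ratio of TLR2 to TLR4 has 1 animal far below in each group.

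Markers of cells that could carry these genes were read beside them, and some lists differed between the groups. Of 15 macrophage markers, 10 were found, of which 3 were higher and 2 were lower. Their summed level was 397 to 816 CPM in controls and 1060 to 1390 CPM in NASH. Much of this was *GPNMB*, a gene of lipid-laden macrophages, with a log2 fold change of 3.21 (adjusted p = 3.04e-06, edgeR). Without *GPNMB*, the sum ranged from 383 to 759 CPM (median 672) in controls and from 621 to 826 CPM (median 664) in NASH. Its genes did not move together. *CD68*, a macrophage marker within that sum, ranged from 155 to 196 CPM in controls and from 244 to 308 CPM in NASH, without overlap. The log2 fold change of *CD68* was 0.69 (adjusted p = 9.33e-06, edgeR). *TREM2*, a receptor of lipid-associated macrophages, had 0 counts in 5 controls and 0.413 CPM in Control 32, and 9.08 to 19.3 CPM in NASH. The Kupffer cell receptor *MARCO* fell by 1.27 on the log2 scale (adjusted p = 0.00364), and the mannose receptor *MRC1* fell by 0.67 (adjusted p = 0.0011). With scaling by library size alone, *MARCO* stood at -0.81 (adjusted p = 0.0339) and *MRC1* at -0.20, where its call was lost (adjusted p = 0.227). The part of macrophage number or type in the changes of *TLR4*, *TLR9*, *NLRP3* and *IL18* was not tested.

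Of 12 monocyte and neutrophil markers, 7 were found and 6 were higher, with a summed level of 18.4 to 43.2 CPM in controls and 47.1 to 81.2 CPM in NASH. Its largest gene was the neutrophil gene *LTF*, with means of 20.9 CPM in controls and 46 CPM in NASH. Of 12 lymphocyte markers, 10 were found, of which 4 were higher and 2 were lower, with sums of 73.8 to 125 CPM in controls and 51.1 to 88.2 CPM in NASH. Within that list the B cell gene *CD79A* rose with a log2 fold change of 1.49 (adjusted p = 2.44e-05, edgeR). The T cell genes did not move together. *CD3E* fell by 1.06 (adjusted p = 0.00242) and *CD8A* rose by 1.29 (adjusted p = 0.00111), whereas *CD3D*, *CD3G*, *CD2* and *CD4* did not pass the test. *CD3E*, with a mean of 69 CPM in controls and 33 CPM in NASH, was the largest gene of the lymphocyte sum, which mainly followed this row. *CD3D* and *CD3G* had means of 0.982 and 3.37 CPM in controls. Whether the row of *CD3E* holds T cell RNA alone was not tested. Of 10 endothelial markers, all found, 3 were higher and 2 were lower (670 to 961 and 749 to 1040 CPM). All 6 found cholangiocyte markers were higher (73.8 to 117 and 320 to 563 CPM), as were all 5 found erythroid markers (58.3 to 173 and 431 to 4560 CPM). With limma-voom, 3 of the 5 erythroid markers were called higher. The hepatocyte and erythroid sums had *ALB* and *HBA1* as their largest genes. No found marker was at 0 in all animals. The part of these cells in the levels of the 10 genes was not tested.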

How the data were processed

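Stranded, oligo-dT enriched, single-read 75-nucleotide libraries were mapped by the authors with HISAT2 2.1.0 to Cavpor3.0 after Trimmomatic 0.38.0, multimapped reads were dropped, and raw counts per StringTie 1.3.6 locus or Ensembl gene were deposited. The authors also deposited log2 values (rlog, DESeq2) of human orthologue symbols with a total of at least 200 counts. The count table holds no symbols, so symbols were joined to rows by running the rlog transformation again and matching values (largest difference 8.35e-07). The 11896 symbols came from 11031 rows, and 1515 symbols shared a row.

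Counts were tested with edgeR 4.0.16 in R 4.3.3 (TMM factors, robust glmQLFit, glmQLFTest, two-sided), with Benjamini-Hochberg adjustment over 11896 symbols and a threshold of 0.05. CPM used TMM-scaled totals, and log2 CPM a prior count of 2. The SE is the absolute log2 fold change over the square root of F. Ratios were compared by exact permutation over all 924 assignments and adjusted over 3 ratios. Groups came from the sample labels, and every sample was used. Alternatives were RLE and upper-quartile factors, library size alone, DESeq2 1.42.0, limma-voom (limma 3.58.1), every row with at least 1 count, filterByExpr, each row once, a threshold of 0.01, a prior count of 0.5 for ratios, and each animal left out. On simulated data with 200 of 11031 genes changed 4-fold, edgeR recovered 100%, and 5.21% of its calls were false, compared with 15.6% for DESeq2 and 6.54% for limma-voom, which also recovered 100%. Smaller changes were not simulated. The performance of the 3 tools with as many changes as in these livers, where 53.9% of genes were called by edgeR, was not tested. Averaged over genes, same-group animals differed by at least 50.2 times counting error in variance. This average is driven by genes with many counts and does not describe genes with few. Figures used matplotlib.

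The 10 genes and all lists were chosen with earlier results of these data known. Named besides the 10 were the other TLRs, the genes of the ratios, up to 2 genes with the highest and 2 with the lowest change among the called genes of each list, and the 3 genes most like *TLR2*, *NLRP3* and *IL1B*. *CASP4*, *IL1RN*, *TLR5* and *TLR10* were named beside them as shared or missing entries. *ACAA1*, *CD68*, *CD8A*, *CD3D*, *CD3G*, *CD2*, *CD4*, *LTF*, *ALB* and *HBA1* were named after their values were seen. Protein and promoter sequences were not used here.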

Additional observations from a re-analysis of the deposited data

Results flagged for a closer look

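In 20 of 122 groups of 6 animals, 1 animal was further from the others than 0.625 of the group's range, which chance gives in about 1 in 20 groups. Among the 10 genes these were *TLR2* in NASH 9 (0 CPM, against 5.71 to 7.14 in the other NASH animals), *TLR9* in Control 10 (1.9 CPM, against 0.745 to 1.14 in the other controls), *IL1B* in Control 5 (6.5 CPM, against 15.3 to 18) and *MYD88* in Control 32 (8.17 CPM, against 40.3 to 57.1). The log2 ratio of *TLR2* to *TLR4* was -4.92 in Control 45 and -6.47 in NASH 9, values set by the prior count since both animals had 0 counts of *TLR2*.

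Control 5 was also far below the other controls in *TLR8* (1.86 CPM), *UNC93B1* (9.58 CPM), *IKBKE* (0.715 CPM) and *GPNMB* (14.1 CPM). Compared with the other NASH animals, NASH 65 was low in *TLR8* (1.19 CPM) and high in *FCN1* (7.88 CPM), a monocyte gene, and in *NKG7* (6.06 CPM), a gene of natural killer and cytotoxic T cells. *NKG7* was lower in NASH (log2 fold change of -0.97, adjusted p = 0.000315, edgeR), and NASH 65 too lay below all controls, whose lowest was 6.29 CPM. NASH 9 was high in *IL1R1* (120 CPM) and in the row of *CASP5* (3.09 CPM). Control 56 was low in *IL18BP* (9.15 CPM) and high in *LYVE1* (150 CPM), a gene of sinusoidal endothelium. *MARCO* was high in NASH 41 (55.2 CPM), and *TREM2* was above 0 among the controls in Control 32 (0.413 CPM), which also had the highest control sum of monocyte and neutrophil markers (43.2 CPM).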

How the results depend on the processing

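Of 21 alternatives, 19 gave 5 of the 10 genes higher, 1 gave 6 (without NASH 9, which added *TLR2*) and 1 gave 9 (library size alone, which added *TLR2*, *TLR3*, *CASP1* and *IL1B*). Scaling by library size alone shifted the median over all genes to 0.48 (log2). It gave 44 higher and 2 lower genes in the pathway lists, and summed log2 ratios of 1.26 for macrophage, 1.79 for monocyte and neutrophil, 0.01 for lymphocyte, 0.53 for endothelial, 2.77 for cholangiocyte and -0.74 for hepatocyte markers. Under it the log2 fold changes of *TLR3* (0.37), *MYD88* (0.26), *CNPY3* (0.07), *SIGIRR* (0.22) and *TEK* (0.11) changed sign. Over all genes it gave 7603 higher and 911 lower, beside 3318 and 3093 with TMM factors. Taken relative to the shifted median, the values of the 10 genes under it were within 0.02 of those reported. A change of scaling moves all genes by about the same amount, so this closeness was set in advance and does not test the scaling. *IL1R2* ranged from -0.04 to 0.17 with 1 animal left out, with a changed sign without Control 31 (-0.04) and NASH 41 (-0.03), and was -0.03 without both Control 45 and NASH 9. The difference in the log2 ratio of *TLR2* to *TLR4* ranged from -0.25 to 1.55 with 1 animal left out and was 0.85 without both animals at 0. Leaving out pairs of animals was added after seeing the data. Of 1071 values under the 21 alternatives, for 51 genes (the 10, the other TLRs, the genes of the ratios and the genes picked from each list, some of them markers not described in the text, and not the genes picked for likeness), 1041 kept direction and side of the threshold. The other causes were not tested.

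No paired analysis was possible because the animal numbers in the labels are not shared between groups. Low counts limit *TLR2*, *TLR4*, *TLR9*, *PYCARD*, *CASP1* and *IL18*, with 0 to 79 counts per control.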
